A study of Mus musculus with 16 samples.

Results

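The promoters described here carried an RNA polymerase II (Pol II) peak in GSK-treated CD8+ T cells and none in Veh-treated CD8+ T cells. A promoter was a window of 1 kb on either side of a transcription start site (TSS) of a curated RefSeq transcript of mm10. The promoters were chosen by their Pol II peaks alone. A window was taken when it overlapped at least 1 bp of a peak in the GSK Pol II list and no peak in the Veh Pol II list. This rule gave 897 promoters of 803 genes, out of 31603 promoters of 26180 genes, which is 2.84% of all promoters. Another 6689 promoters had a Pol II peak in both lists, 2239 (7.08%) in the Veh list only and 21778 in neither.

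The cells were CD8+ T cells from spleens of OT1 mice, which carry a transgenic T cell receptor for an ovalbumin peptide. Anti-CD3 and anti-CD28 antibodies with IL-2 were given for the first 48 h, and IL-2 alone for another 3 days of expansion. GSK2879552 (GSK), an irreversible LSD1 inhibitor, was present at 0.5 μM throughout, and vehicle (Veh) took its place in the control culture. Chromatin immunoprecipitation with sequencing (ChIP-seq) was done with antibodies to 6 targets (LSD1, H3K4me1, H3K4me2, H3K4me3, H3K27ac and Pol II), with 1 library per antibody and treatment, while 4 input samples carried no peak list. Depth is unknown from the peak lists, which give no read numbers. The study lists more unique read pairs in GSK than in Veh for Pol II, H3K4me1 and H3K4me3, and fewer for LSD1, H3K4me2 and, by the widest margin, H3K27ac. The part of depth in the choice of the promoters and in the changes of the marks was not tested. The study states that the ChIP-seq was repeated, but only a single peak list per antibody and treatment was analysed here, and whether it comes from a pool or from a single repeat is not given in the sources used here. None of the differences could therefore be set against biological spread. Intervals are 95% intervals that cover counting error over promoters only, and neighbouring TSSs that share a peak are not independent.

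Pol II gathers at the start of genes, where it initiates and often pauses just downstream of the TSS before it enters the gene body. H3K4me3 marks promoters that are active or open to initiation, and H3K27ac marks those with acetylated, active chromatin. H3K4me1 and H3K4me2 lie on enhancers and on the flanks of promoters, and LSD1 (encoded by Kdm1a) removes both as part of repressor complexes with CoREST and histone deacetylases. A Pol II peak reports occupancy, and it does not measure RNA.

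The labelled cell type was checked at promoters. All 7 CD8 T cell marker genes with a promoter in the annotation carried H3K4me3 in both treatments. Of these, Cd3d and Cd3g were themselves among the promoters with Pol II in the GSK list only. A Pol II peak was present in both lists at 3 of the 7 and in neither at 2. None of the 3 CD4 T cell, 7 B cell, 6 myeloid, 3 NK cell and 3 erythroid marker genes had a Pol II peak in either list. H3K4me3 was present at 1, 2, 2, 0 and 1 of them, respectively, in either treatment.

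The 250 bp upstream of the TSS are shown for 6 of the promoters, on mm10 coordinates, read from the GRCm38.p6 genome. All 6 were identical to the RefSeq promoter table, as were all 705 of the 897 promoters found in it. Yipf4 and Nampt are shown as strong members with the Pol II summit inside the window. Foxo1, Slamf6 and Cd3d are shown as T cell genes, and Olfr738 as a member at the threshold. Capitals mark matches on either strand to 1 of the motifs named below, and no more than the letters is claimed for a match.
Yipf4, chr17:74489243-74489492, plus strand: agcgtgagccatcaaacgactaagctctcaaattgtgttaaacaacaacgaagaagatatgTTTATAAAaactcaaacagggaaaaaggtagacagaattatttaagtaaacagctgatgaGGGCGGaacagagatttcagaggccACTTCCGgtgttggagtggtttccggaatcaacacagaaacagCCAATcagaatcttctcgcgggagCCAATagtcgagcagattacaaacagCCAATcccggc
Nampt, chr12:32820085-32820334, plus strand: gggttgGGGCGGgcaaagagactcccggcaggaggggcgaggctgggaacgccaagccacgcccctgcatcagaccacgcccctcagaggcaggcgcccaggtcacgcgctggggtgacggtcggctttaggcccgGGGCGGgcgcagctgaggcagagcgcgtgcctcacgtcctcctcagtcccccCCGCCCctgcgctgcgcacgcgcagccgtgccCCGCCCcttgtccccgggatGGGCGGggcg
Foxo1, chr3:52268087-52268336, plus strand: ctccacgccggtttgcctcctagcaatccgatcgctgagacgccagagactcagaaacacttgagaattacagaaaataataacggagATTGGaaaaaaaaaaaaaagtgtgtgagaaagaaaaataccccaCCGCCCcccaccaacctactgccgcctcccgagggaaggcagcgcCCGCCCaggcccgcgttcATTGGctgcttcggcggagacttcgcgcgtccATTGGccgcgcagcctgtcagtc
Slamf6, chr1:171917212-171917461, plus strand: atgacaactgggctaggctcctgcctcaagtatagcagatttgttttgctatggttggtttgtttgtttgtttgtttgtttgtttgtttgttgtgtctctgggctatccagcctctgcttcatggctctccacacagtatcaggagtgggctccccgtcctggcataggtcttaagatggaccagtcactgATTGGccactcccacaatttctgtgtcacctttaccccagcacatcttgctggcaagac
Cd3d, chr9:44981536-44981785, plus strand: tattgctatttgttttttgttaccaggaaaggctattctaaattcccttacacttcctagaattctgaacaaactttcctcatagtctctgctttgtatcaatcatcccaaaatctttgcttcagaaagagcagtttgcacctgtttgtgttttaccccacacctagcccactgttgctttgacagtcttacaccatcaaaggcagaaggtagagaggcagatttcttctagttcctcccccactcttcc
Olfr738, chr14:50413296-50413545, plus strand: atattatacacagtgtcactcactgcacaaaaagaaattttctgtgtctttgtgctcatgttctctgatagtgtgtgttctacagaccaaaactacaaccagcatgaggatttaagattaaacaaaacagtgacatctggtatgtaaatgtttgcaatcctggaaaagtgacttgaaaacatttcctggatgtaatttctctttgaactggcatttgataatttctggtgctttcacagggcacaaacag

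The Yipf4 sequence held 3 CCAAT matches, an ETS match, a GC box and an overlapping pair of TATAAA matches on opposite strands. In Foxo1 there were 3 CCAAT matches and 2 GC boxes in the part shown. Nampt had 5 GC boxes, Slamf6 a single CCAAT match, and Cd3d and Olfr738 had none of the motifs. GC content over the 300 bp from 250 bp upstream to 50 bp downstream of the TSS was 76.3% in Nampt and 61.3% in Foxo1, against 42.3% in Cd3d and 38.7% in Olfr738. The observed over expected CpG ratio was 1.10 in Foxo1 and 0.899 in Yipf4, against 0.0571 in Slamf6, 0.0774 in Cd3d and 0 in Olfr738. The promoters thus ranged from CpG-rich to CpG-free.

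Across all 897 promoters the median GC content was 60.3% and the median CpG ratio 0.757. The CpG ratio was 0.826 at promoters with Pol II in both lists, 0.767 at those with Pol II in the Veh list only, and 0.333 at those with none. A CpG-rich sequence, with a GC content of at least 50% and a CpG ratio of at least 0.6, was found at 65.4% of the promoters (62.3 to 68.5), compared with 78.3% with Pol II in both, 67.4% with Pol II in Veh only and 41.3% of all promoters.

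Motifs were searched in the same 300 bp on both strands. The GC box GGGCGG was present in 59.3% of the promoters, 43.2% of all promoters and 66.9% of those with Pol II in both lists, a difference of −7.61 percentage points from the latter (−11.0 to −4.24). The ETS motif ACTTCCG was present in 12.8% against 7.46% of all promoters and 19.0% with Pol II in both (difference −6.18, −8.43 to −3.66). The CRE half-site TGACGT was present in 12.2% against 8.25% of all and 15.4% with Pol II in both (−3.23, −5.40 to −0.781). The NRF1 half-site GCGCATG was found in 6.35%, against 4.39% of all. CCAAT was found in 39.7%, against 37.3% of all, and the E-box CACGTG in 9.36%, against 7.67% of all. TATAAA was found in 6.91%, against 12.3% of all, and the AP-1 site TGACTCA in 2.12%, against 4.72% of all. Against promoters with Pol II in the Veh list only, the interval of the difference included 0 for every motif other than the GC box, where it was −4.07 points (−7.87 to −0.312). Against promoters with Pol II in both lists the difference was −1.96 points for GCGCATG (−3.53 to −0.0574). That interval included 0 for CCAAT (difference 0.878), TATAAA (0.0200), CACGTG (−1.13) and TGACTCA (−0.648), of which the last 3 lay nearer to the class with Pol II in both lists than to the Veh-only class. TGACGT and CACGTG can share bases with each other.

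The Pol II values that chose the promoters are given as a description. The authors' fold enrichment of a peak is ChIP signal over local background as a ratio, and its −log10 p is the significance that the peak caller gave it. At the 897 promoters the fold enrichment of the strongest GSK Pol II peak had a median of 3.52, with quartiles of 3.15 and 4.10 and a range from 2.28 to 9.41. Its −log10 p had a median of 5.53, with quartiles of 4.49 and 7.31, and ran from 3.01 to 86.5. Promoters with Pol II in both lists had a median GSK fold enrichment of 4.57 and a median −log10 p of 9.59. Promoters with Pol II in the Veh list only had medians of 4.35 and 6.95 for their Veh peak. A −log10 q of at least 2 was reached by 489 of the 897 promoters (54.5%), by 90.1% of those with Pol II in both and by 78.1% of those in the Veh list only. The chosen peaks were thus weaker than those shared by both treatments, and they were narrower, with a median width of 254 bp against 393 bp.

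The share of GSK Pol II promoters without a Veh peak depended on the strength of the peak. It was 56.0% (130 of 232 promoters) at a −log10 p from 3 to 4, 18.9% (285 of 1509) from 5 to 7 and 1.9% (61 of 3212) at 10 or more. In the other direction, 75.3% of Veh Pol II promoters at 3 to 4, 48.3% at 5 to 7 and 8.33% at 10 or more had no GSK peak. Presence in 1 list only was thus most frequent near the threshold of either list.

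**Figure D1:**
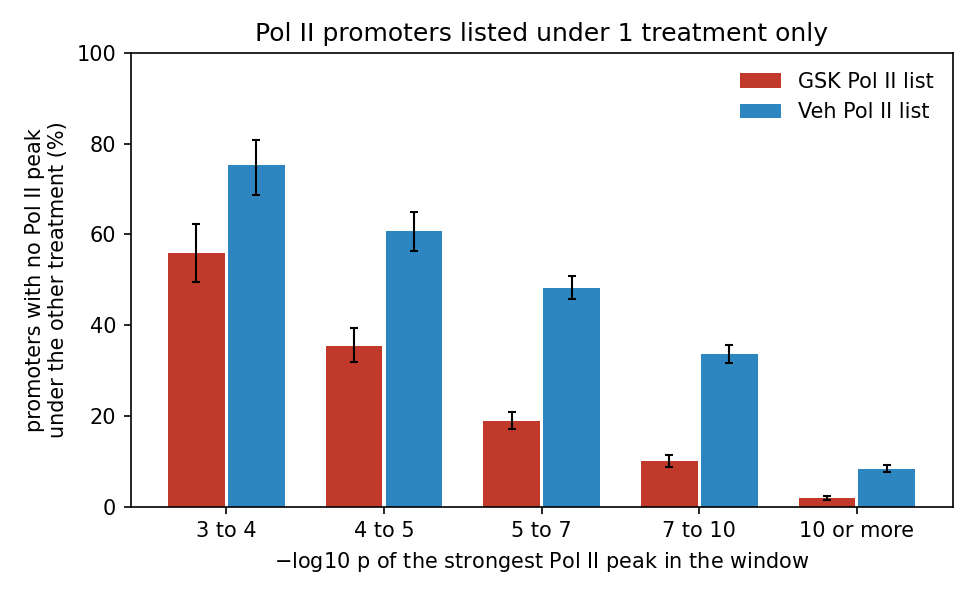
Share of promoters with a Pol II peak in 1 list that had none under the other treatment (vertical axis, percent), by the −log10 p of the strongest peak in the window (horizontal axis), for the GSK list in red and the Veh list in blue, with Wilson 95% intervals as bars. The share goes from 56.0% to 1.9% in the GSK list and from 75.3% to 8.33% in the Veh list.

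Of the 897 promoters, 130 lay at a −log10 p under 4. The weakest were Vasn and Olfr738, each at a −log10 p of 3.01 and a fold enrichment of 2.70, and Gpr82 at 3.03 and 2.63. None of these had a peak of any other antibody. Just outside the rule stood promoters whose Veh peak barely entered its list. Lrrc31 had a −log10 p of 3.03 in Veh and 4.42 in GSK, Irak1 of 3.04 and 5.63, and Pdxk of 3.10 and 4.39. At 22 of the promoters a Veh Pol II peak ended within 100 bp of the window, as at Map4k1 (1 bp), Klrk1 (3 bp) and Thbs3 (6 bp), which were singled out after their values were seen. At 682 promoters no Veh Pol II peak lay within 10 kb, and the median distance to the nearest was 29.4 kb.

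Several promoters shared a peak. The 897 promoters rested on 721 distinct GSK peaks, and 318 had a strongest peak that was also the strongest of another of them. At 20 the GSK peak itself was overlapped by a Veh peak that lay outside the window. Of the 803 genes, 635 had a single promoter and 696 had every promoter in the GSK list only. Another promoter of the gene had Pol II in both lists for 26 genes and in the Veh list only for 8.

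The summit of the peak lay within 250 bp of the TSS at 556 of the 897 promoters (62.0%, 58.8 to 65.1), against 70.6% of those with Pol II in both and 65.5% of those in the Veh list only. The bin just downstream of the TSS was the fullest, and the first 100 bp held 24.6% of the summits. At 41 promoters (4.57%) the summit lay more than 1 kb away, so that only the edge of the peak entered the window. These included the 5 promoters of highest −log10 p. Jund (86.5, summit 1243 bp downstream of the TSS), Agbl5 (34.6, 1198 bp upstream), 2700054A10Rik (28.6, 1077 bp downstream), Gm12764 (28.4, 1227 bp downstream) and Tent4a (17.4, 1134 bp upstream) each had a Veh Pol II peak 13 to 110 bp beyond the window edge. Their Pol II was therefore present near the window in both treatments.

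**Figure D2:**
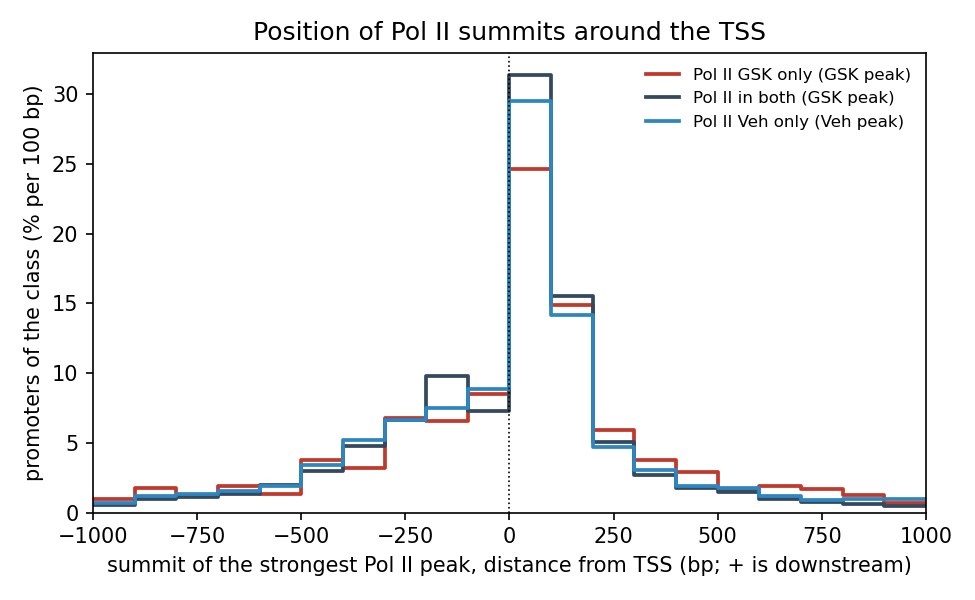
Position of the Pol II summit relative to the TSS (horizontal axis, bp, positive downstream) as percent of the promoters of a class in bins of 100 bp (vertical axis), for Pol II in the GSK list only (red), in both lists (dark grey, GSK peak) and in the Veh list only (blue, Veh peak). All classes are highest in the first 100 bp downstream of the TSS, and the red line holds 24.6% there.

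A stricter set was formed after these values were seen, of promoters with the summit inside the window, a −log10 q of at least 2 and no Veh Pol II peak within 1 kb of the window. It held 445 promoters of 396 genes. Of these, 97.5% carried H3K4me3 in either treatment and 80.4% carried LSD1 in GSK-treated cells. They are called the clear members below.

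The strongest clear members covered many cellular functions. Yipf4, a Golgi membrane protein of the YIP1 family, had the highest −log10 p (15.7, fold enrichment 6.39), with the summit 73 bp downstream of the TSS and the nearest Veh Pol II peak 37372 bp from the window. Prdm11, a PR domain protein, followed at 14.8 and a fold enrichment of 6.01. Slc12a4, a potassium chloride cotransporter, stood at 13.9 and 6.16. Actr6, an actin-related protein of chromatin remodelling complexes, stood at 13.6 and 6.19 with the summit 5 bp from the TSS. Fosb, an AP-1 transcription factor of the early response, reached 13.4 and 5.06. Eif4ebp2, a repressor of cap-dependent translation, and Mtch1, a protein of the mitochondrial outer membrane, each reached 13.3. Uchl1, a ubiquitin hydrolase, shared its peak (13.0) with its antisense transcript Uchl1os, and Elp3, the catalytic subunit of the Elongator complex, stood at 12.9. The peak caller did not separate strands, so a peak between Uchl1 and Uchl1os cannot be given to either.

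These strong promoters had H3K4me3 in both treatments and differed in the other marks. At Prdm11 the H3K4me3 fold enrichment was 4.73 in Veh and 5.49 in GSK, and LSD1 was 3.96 and 4.52. At Mtch1 the H3K4me3 fold enrichment was 7.53 in Veh and 6.14 in GSK, and LSD1 was 3.41 and 2.91. At Eif4ebp2 the H3K4me3 fold enrichment was 6.87 and 7.00, with H3K27ac in Veh only (3.77). At Slc12a4 LSD1 was 4.42 in Veh and 3.68 in GSK. Actr6 and Elp3 had no LSD1 peak. Neither H3K4me3 nor LSD1 moved in 1 direction over these genes. Folds of separate libraries are not on 1 scale, so each is also ranked below within its own list.

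The marks that the rule did not use were then counted over the 897 promoters. H3K4me3 was present at 88.1% in Veh (790 promoters) and at 88.5% in GSK (794). It was in the GSK list only at 6 promoters and in the Veh list only at 2, where 1.52% and 0.351% of all promoters were so listed. Subtracting the Veh-only share from the GSK-only share gives a net change, which was 0.446 percentage points (−0.162 to 0.764). Most promoters where Pol II was listed under GSK only therefore carried H3K4me3 without the inhibitor as well, while 101 lacked it in either treatment. The share in GSK was 11.1 points below that at promoters with Pol II in both lists (−13.4 to −9.21) and 6.03 points below that in the Veh-only class (−8.45 to −3.86). Over all promoters it was 50.6%.

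LSD1 was present at 62.8% of the promoters in Veh and at 71.9% in GSK. It was in both lists at 504, in the GSK list only at 141 (15.7%) and in the Veh list only at 59 (6.58%), against 9.92% and 4.51% of all promoters. The net change of LSD1 was 9.14 points (6.17 to 11.8). It was 10.0 at promoters with Pol II in both lists, 9.16 in the Veh-only class and 5.41 over all promoters. The share with a GSK-only LSD1 peak differed from the Veh-only class by −1.16 points (−3.92 to 1.77), so LSD1 did not separate promoters by the direction of the Pol II listing beyond counting error. The GSK LSD1 list was the shorter of the pair, with 19919 peaks against 21252.

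H3K4me1, a substrate of LSD1, was present at 39.4% in Veh and 49.6% in GSK. It was in the GSK list only at 147 promoters and in the Veh list only at 55, where 9.78% and 3.50% of all promoters were so listed. The net change was 10.3 points (7.32 to 12.8), next to 11.6 with Pol II in both lists, 10.3 in the Veh-only class and 6.27 over all promoters. With H3K4me1 lists of equal length, and the Pol II lists also cut to equal length, it was 4.10 points (1.02 to 7.03).

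H3K4me2, the other substrate, was present at 64.4% in Veh and 47.7% in GSK. It was in the GSK list only at 31 promoters and in the Veh list only at 181, where 1.92% and 12.8% of all promoters were so listed. The net change was −16.7 points (−18.7 to −14.2), against −24.8 with Pol II in both lists and −22.5 in the Veh-only class. The deposited GSK H3K4me2 list held 9437 peaks and the Veh list 15219. When each list was cut to its 9437 most significant peaks, the net change turned to 4.66 points (1.74 to 7.38), with 2.59 (1.38 to 3.79) at promoters with Pol II in both lists and 0.626 (−1.39 to 2.63) in the Veh-only class. The direction for H3K4me2 thus depended on list length, and with equal lengths the interval at the GSK-only promoters overlapped those of both other classes.

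H3K27ac was present at 28.3% in Veh (254 promoters) and 7.25% in GSK (65). It was in the GSK list only at 10 promoters and in the Veh list only at 199, where 0.335% and 12.1% of all promoters were so listed. The net change was −21.1 points (−22.1 to −19.3), against −35.9 with Pol II in both lists and −28.9 in the Veh-only class. The GSK list held 2751 H3K27ac peaks and the Veh list 7410. With equal lists the net change was 0.111 points (−1.83 to 2.04), so its sign also turned, with an interval that included 0. In Veh-treated cells the share with H3K27ac was 41.7 points below that of promoters with Pol II in both lists (−44.7 to −38.5) and 10.4 points below that of the Veh-only class (−13.9 to −6.77). Over all promoters the share was 20.3% in Veh and 8.51% in GSK. Most of the promoters, 633 of 897, thus had no H3K27ac peak in either treatment, as had 25092 of all 31603 promoters.

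**Figure D3:**
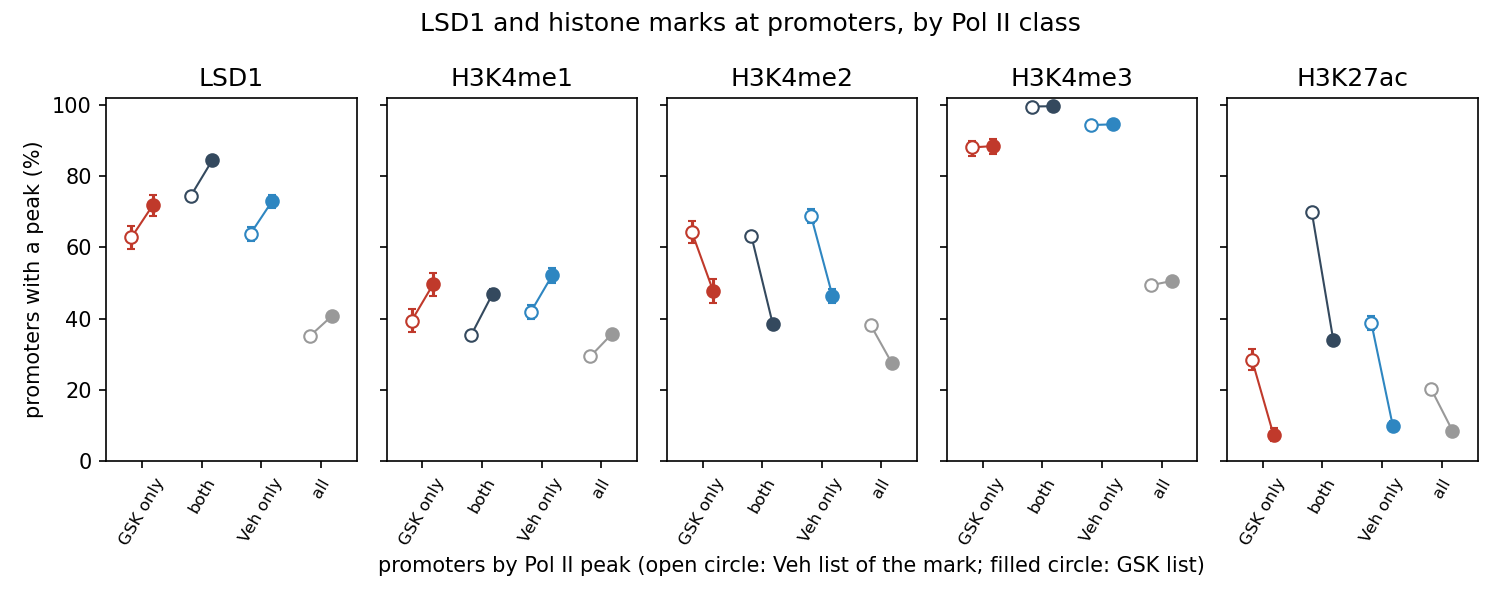
Share of promoters with a peak of LSD1 or of each histone mark (vertical axis, percent) for promoters with Pol II in the GSK list only (red), in both lists (dark grey), in the Veh list only (blue) and for all promoters (light grey). Open circles are the Veh list and filled circles the GSK list of the mark, and bars are Wilson 95% intervals. At the GSK-only promoters LSD1 goes from 62.8% to 71.9% and H3K27ac from 28.3% to 7.25%, and each line slopes the same way in the other classes.

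**Figure D4:**
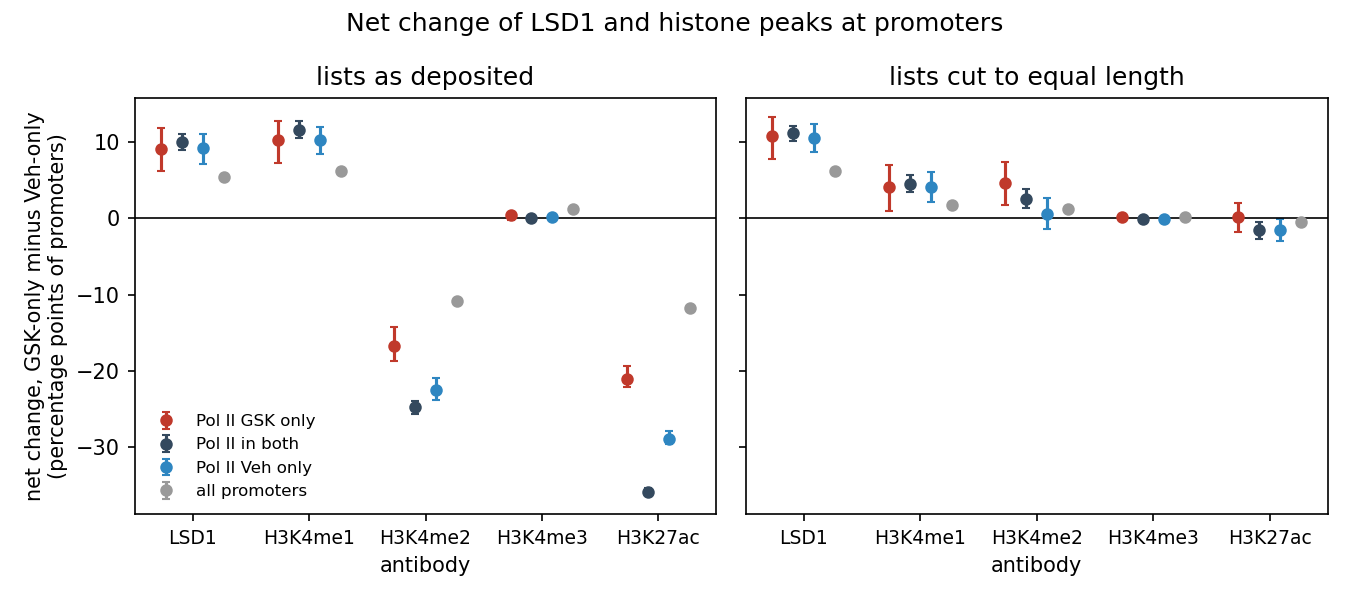
Net change of each mark (GSK-only share less Veh-only share, in percentage points) by Pol II class, with the lists as deposited on the left and each pair of lists cut to the length of the shorter one on the right, with 95% intervals as bars. For the GSK-only promoters in red, H3K4me2 is at −16.7 on the left and 4.66 on the right, and LSD1 at 9.14 and 10.8.

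Because strong Pol II peaks lie at promoters with more marks, the classes were also set side by side within bins of Pol II −log10 p. GSK-only promoters were binned by their GSK peak and Veh-only promoters by their Veh peak. The 2 Pol II libraries differ in depth, so equal bins need not mean equal strength. At a −log10 p from 5 to 7, the 285 GSK-only promoters carried H3K27ac in Veh in 34.4% (29.1 to 40.1), the 696 Veh-only promoters in 38.1% (34.5 to 41.7) and promoters with Pol II in both in 59.7% when binned by their GSK peak. LSD1 in GSK was at 74.7%, 72.6% and 83.3%, and H3K4me3 in GSK at 95.1%, 97.0% and 99.8%. In this bin the intervals of the GSK-only and Veh-only classes overlapped for each of these marks. In the other bins H3K27ac in Veh was lower in the GSK-only than in the Veh-only class, at 10% against 18.9% from 3 to 4, 19.5% against 27.7% from 4 to 5, 39.8% against 43.6% from 7 to 10 and 32.8% against 46.5% at 10 or more. These intervals overlapped in each bin, and in every bin the GSK-only class stood below the shared class, where H3K27ac in Veh ran from 52.0% to 78.7%. LSD1 in GSK also stood below the shared class in each bin, and was closest to it from 7 to 10, at 84.1% against 84.9%.

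Where a mark was present in both treatments, its fold enrichment was ranked as a percentile within its own list. For LSD1 at 504 promoters the median GSK minus Veh rank was 4.80 percentile points, and 315 ranked higher in GSK. Over all 9714 promoters with LSD1 in both it was 6.25. For H3K4me3 at 788 promoters it was 0.370, against 0.476 over all. For H3K4me1 it was 0.788 (298 promoters) against 1.27, and for H3K4me2 −5.67 (397 promoters) against −4.61. For H3K27ac at 55 promoters it was 0.704 by fold enrichment and −4.28 by −log10 p, against −6.69 and −13.7 over all. The median for H3K27ac thus differed in sign from that of all promoters by fold enrichment and not by −log10 p, and it compares lists of very unequal length. For the other marks the median had the same sign as over all promoters.

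The level of marks also placed the promoters. The median H3K4me3 percentile in GSK was 62.8 at the GSK-only promoters, 63.2 in the Veh-only class and 53.3 with Pol II in both lists, while the median H3K4me3 width was 1.28, 1.27 and 1.48 kb. LSD1 percentiles in GSK had medians of 66.1, 65.4 and 64.7. H3K27ac in Veh had a median percentile of 47.6, against 52.7 and 64.5. The H3K4me3 regions of the GSK-only promoters were thus narrower than those of the shared class, and not lower in rank.

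Combined over the 5 antibodies, 334 promoters had every other target listed alike in both treatments. At least 1 target was in the GSK list only at 294 and in the Veh list only at 398, which may be the same promoter. The most frequent pattern, at 105 promoters, was LSD1, H3K4me1, H3K4me2 and H3K4me3 in both treatments without H3K27ac. At 81 promoters none of the other antibodies had a peak in either treatment. These combined patterns were counted for the GSK-only promoters alone, so whether any of them is particular to these promoters was not tested.

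The promoters with an active mark in the GSK list only were few. For H3K4me3 these were Csrnp1, Sigirr, Gm51276, Eef2k, Myadm and Pou2af1, of which only Sigirr, an inhibitory receptor of interleukin 1 and Toll-like receptor signalling, was a clear member (Pol II −log10 p 8.36, fold enrichment 4.04). The GSK H3K4me3 peak at Sigirr had a fold enrichment of 2.55, at percentile 1.33, and so lay at the lower end of its list. At Csrnp1 the Pol II summit lay 1058 bp from the TSS. Another Csrnp1 promoter among the 897 carried H3K4me3 in both treatments, at a fold enrichment of 4.45 in Veh and 3.87 in GSK. For H3K27ac, Dbf4, a regulatory subunit of the kinase that starts DNA replication, shared its peak with the divergent Slc25a40, a mitochondrial carrier (both 7.72). Tcf12, an E-protein transcription factor, stood at 6.93, the kinase Dyrk1a at 6.89, the phosphatidylinositol transfer protein Pitpnb at 6.58, the acetyltransferase subunit Naa20 at 6.38, Ddi2 at 5.37 and Cacfd1 at 5.26. Of these, Tcf12, Pitpnb, Naa20 and Ddi2 were clear members.

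Among the 141 promoters with LSD1 in the GSK list only, the strongest Pol II peaks were at Camkk2, a calcium-dependent kinase (−log10 p 12.8), Mrpl45, a mitochondrial ribosomal protein (12.4), Cwc15, a spliceosome protein (11.9) that shares its promoter with Kdm4d, a histone demethylase, and Kat2a, the histone acetyltransferase GCN5 (11.6). Kat2a was not a clear member, with a Veh Pol II peak 384 bp from the window. The GSK LSD1 peak at Kat2a had a fold enrichment of 2.81, at percentile 0.823, and so lay at the lower end of its list. Kcna3, the voltage-gated potassium channel of T cells, stood at 11.3, after the divergent pair Nsun2, an RNA methyltransferase, and Srd5a1, a steroid reductase, which share 1 peak (11.6). Among the 59 with LSD1 in the Veh list only were Fosb (13.4), Cyc1, the cytochrome c1 of the respiratory chain (11.2), Acsl4, an acyl-CoA synthetase (10.6), Tceal9 (10.4) and P2ry14, a receptor for UDP-glucose (9.07, summit 1208 bp upstream). At Fosb the Veh LSD1 peak had a fold enrichment of 3.01, at percentile 5.02 of its list, so it lay close to the list's lower end.

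Promoters without H3K4me3 in either treatment made up 49.1% of all promoters, 0.299% of those with Pol II in both lists and 5.27% of the Veh-only class. At the GSK-only promoters they were 101, or 11.3%. The median summit of these 101 was 480 bp from the TSS, against 150 bp for the others, and their median −log10 p was 4.21 against 5.80. A −log10 q of at least 2 was reached by 15 of them. They comprised 81 protein-coding, 13 lncRNA and 4 miRNA promoters among others. LSD1 was present in GSK at 7 and H3K27ac at 1.

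Olfactory receptor genes were part of this group. These genes are expressed in the nasal epithelium and are silent in T cells. Of 1110 of them with a promoter, 18 had Pol II in the GSK list only, 17 in the Veh list only and 0 in both. None of the 18 carried a peak of any other antibody in either treatment, their median −log10 p was 3.88, and 1 of them, Olfr181 at 6.38, met the stricter criteria. Next in strength were Olfr716 and Olfr905 at 4.53, Olfr1181 at 4.49 and Olfr804 at 4.40. The share of olfactory receptor genes with a GSK-only promoter, 1.62% (1.03 to 2.55), was below the 3.07% of all genes. Among the 35 of them with Pol II in either treatment it was 51.4% (35.6 to 67.0). That was above the 9.51% of all genes with Pol II in either treatment. Whether the 1.62% gives a level for peaks listed without active chromatin was not tested.

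Most of the promoters, 91.2%, belonged to protein-coding genes, 6.80% (61) to lncRNAs and 1.34% (12) to miRNAs, next to 91.4%, 6.40% and 0.897% with Pol II in both lists. Over all promoters the shares were 82.9%, 11.1% and 3.89%. A divergent partner within 1 kb was present at 15.5% (13.3 to 18), against 25.7% (24.7 to 26.8) with Pol II in both and 23.6% (21.9 to 25.4) in the Veh-only class. The X chromosome held 39 (4.35%), against 1.75% with Pol II in both, 3.89% in the Veh-only class and 4.21% of all promoters. The promoters were thus less often divergent than those with Pol II in both lists or in Veh only, and more often than all promoters, beyond the counting intervals.

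Gene function was described with 23 gene lists and name patterns. Over all genes 3.07% had a GSK-only promoter, and over genes with Pol II in either treatment 9.51% did. Counts below are read against these shares, and the lists are short.

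Of 28 T cell receptor signalling genes, 4 had a GSK-only promoter (14.3%, 5.70 to 31.5). All 28 carried H3K4me3 in both treatments and 18 had Pol II in both. Cd3d and Cd3g, which encode the CD3 delta and gamma chains of the receptor complex, lie head to head and had separate GSK peaks. At Cd3d the Pol II −log10 p was 9.69 with the summit 92 bp downstream, and the nearest Veh peak was 2567 bp from the window. At Cd3g it was 4.16 with the summit 77 bp downstream. Both carried H3K4me3 and H3K4me1 in both treatments with no LSD1, H3K4me2 or H3K27ac. Prkcq, the kinase PKC theta that acts downstream of CD28, stood at 6.15, with LSD1 at a fold enrichment of 4.90 in Veh and 4.02 in GSK, and H3K27ac in Veh only. Zap70, the kinase recruited to the phosphorylated receptor, stood at 5.99 at a TSS other than the one where Pol II was present in both lists, with its summit 670 bp downstream. That Zap70 promoter carried no H3K4me3.

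Of 21 memory and progenitor genes, 3 were included (14.3%, 4.98 to 34.6), which are 3 of the 15 with Pol II in either treatment. Foxo1, the transcription factor that sustains Il7r and Klf2 in naive and memory T cells, was a clear member. Its Pol II −log10 p was 12 and its fold enrichment 5.08, with the summit 115 bp downstream and the nearest Veh Pol II peak 69052 bp from the window. LSD1 at Foxo1 had a fold enrichment of 5.02 in Veh and 4.94 in GSK, and H3K4me3 of 3.11 and 3.03, with no H3K4me1, H3K4me2 or H3K27ac peak. Slamf6, a receptor found on progenitor-like CD8+ T cells, had a Pol II −log10 p of 4.89 and a fold enrichment of 3.00, with the summit 361 bp downstream. Its H3K4me3 fold enrichment was 3.84 in Veh and 3.28 in GSK, at percentiles 10.0 and 4.19, and it carried H3K4me1 in both and no LSD1 or H3K27ac in the window. Lef1, a partner of beta-catenin in naive and memory T cells, stood at 3.04, close to the threshold, with the summit 847 bp upstream. It carried LSD1 in both treatments (2.88 in Veh and 2.55 in GSK) and H3K4me3 in both.

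Of 22 AP-1, EGR and other early genes, 3 were included (13.6%, 4.75 to 33.3). Fosb was a clear member, and so was Maff, a small Maf protein, though not at every TSS. Jund was the edge case above. At Fosb the H3K27ac fold enrichment was 5.58 in Veh, at percentile 95, with no peak in GSK, while H3K4me3 was 4.11 and 4.18. At Maff 4 TSSs shared 1 peak at a −log10 p of 5.34, and H3K27ac (5.1) was again in Veh only. Pol II and H3K27ac were thus listed in opposite treatments at these promoters, in a GSK H3K27ac list of less than the Veh length.

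The effector and inhibitory receptor lists each held 1 gene. Of 24 effector and cytokine genes only Klrk1, which encodes the receptor NKG2D, was included (4.17%, 0.739 to 20.2), with a Veh peak 3 bp outside the window and Pol II in both lists at another of its promoters. Of 16 inhibitory receptor and exhaustion genes only Nr4a2, a nuclear receptor induced by T cell receptor signals, was included (6.25%, 1.11 to 28.3), at a −log10 p of 7.21, and it too had another promoter with Pol II in both lists. None of the 29 interferon response genes, 25 glycolysis and nutrient transport genes, 20 chemokine receptor and adhesion genes, 12 BCL2 family genes, 21 nucleoporin genes or 85 cytosolic ribosomal protein genes was included. Among the latter, 90.6% had Pol II in both lists.

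Of 32 cytokine receptor and JAK-STAT genes, 2 were included (6.25%, 1.73 to 20.1). Il18r1, the receptor for interleukin 18, stood at a Pol II −log10 p of 5.95 over 3 TSSs, with LSD1 at a fold enrichment of 3.90 in Veh and 5.32 in GSK, and was a clear member.

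Of 35 cell cycle genes, E2f8, a repressor of E2F targets, and Cdkn2c, the CDK inhibitor p18, were included (5.71%, 1.58 to 18.6). At E2f8 (−log10 p 6.96) LSD1 had a fold enrichment of 3.10 in Veh and 6.86 in GSK, at percentiles 8.75 and 90.6, and H3K27ac of 3.98 and 6.40. Cdkn2c had its summit 1102 bp upstream and a Veh peak 44 bp from the window. Of 24 DNA repair genes, the checkpoint kinase Chek1 (6.57) and Fanci of the Fanconi anaemia pathway (5.11) were included (8.33%, 2.32 to 25.8). H3K27ac at Fanci was present in both treatments, at a fold enrichment of 5.48 in Veh and 5.90 in GSK, and absent from Chek1.

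Of 33 LSD1 complex and histone methylation genes, Rcor3, a CoREST family protein, and Gfi1, a zinc finger repressor that recruits LSD1, were included (6.06%, 1.68 to 19.6). Gfi1 stood at a Pol II −log10 p of 4.43 with LSD1 in both treatments (fold enrichment 3.00 in Veh and 2.99 in GSK). Rcor3 stood at 3.57 with LSD1 at 5.30 and 5.47. Neither was a clear member.

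Housekeeping families held members near the background. Of 78 mitochondrial ribosomal protein genes 4 were included (5.13%), namely Mrpl45 (12.4), Mrpl19 (5.0) and the divergent pair Mrpl46 and Mrps11, which share 1 peak (9.37). Of 80 respiratory chain genes 4 were included (5.0%), namely Ndufa5 (7.90), Ndufb3 (5.41), Uqcr11 (3.89) and Atp5e (3.59). Of 39 proteasome genes Psmc2 (7.44), Psmd4 (7.09) and Psmb6 (4.43) were included (7.69%), and LSD1 was in the GSK list only at Psmc2 and Psmd4. Of 52 spliceosome and hnRNP genes only Snrpd3 (4.69) was included, and of 40 centrosomal protein genes only Cep128 (3.42).

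Of 395 zinc finger protein genes 20 were included (5.06%, 3.30 to 7.69), which are 10.0% of the 200 with Pol II in either treatment. The strongest were Zfp326 (9.87), Zfp507 (7.32), Zfp595 (6.95), Zfp3 (6.93) and Zfp157 (6.82). Of their 21 promoters 18 carried H3K4me3. LSD1 was in both lists at 7, in the Veh list only at 6 and in the GSK list only at 2. Over the 897 promoters it was in the Veh list only at 6.58% and in the GSK list only at 15.7%. Over all promoters these shares were 4.51% and 9.92%. Whether this family differs from them was not tested. Of 364 solute carrier genes 14 were included (3.85%, 2.3 to 6.35), led by Slc12a4 (13.9), Slc11a2, an iron transporter (8.28), Slc25a40 (7.72), Slc25a42, a carrier of coenzyme A (7.71) and Slc25a51, the mitochondrial NAD+ carrier (7.58). Against the 9.51% of genes with Pol II in either treatment, the interval of each list other than cytosolic ribosomal protein and olfactory receptor genes included that share. These 2 departed in opposite directions, with ribosomal protein genes below it (0%, 0 to 4.64) and olfactory receptor genes above it (51.4%, 35.6 to 67.0).

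**Figure D5:**
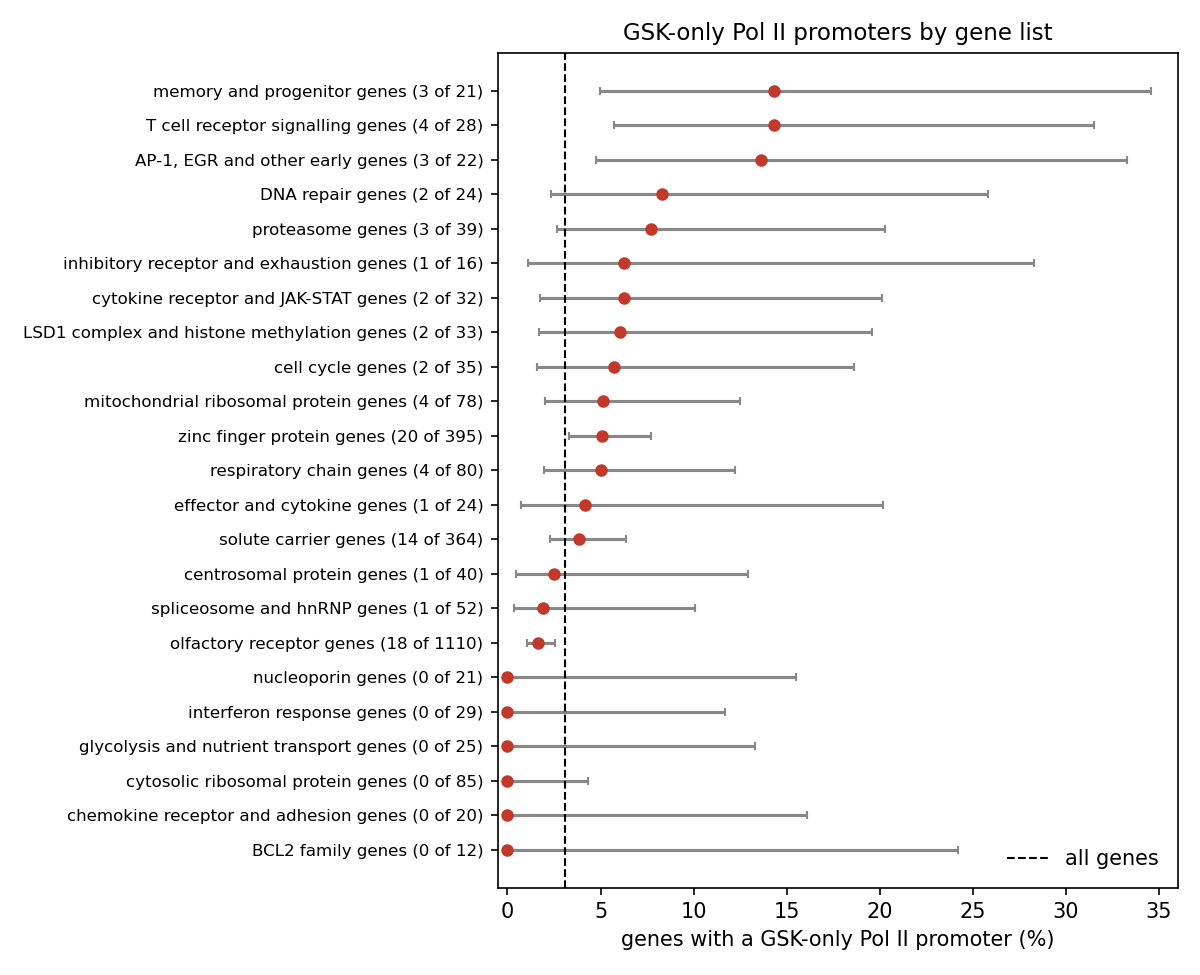
Share of genes with a GSK-only Pol II promoter (horizontal axis, percent) for each of 23 gene lists and patterns, with the counts in the labels and Wilson 95% intervals as bars. The dashed line marks the 3.07% of all genes. Memory and progenitor genes and T cell receptor signalling genes are at 14.3%, and 6 lists are at 0.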

How the data were processed

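Per the study's methods, the authors mapped reads to mm10 with Bowtie2, removed duplicates and ran MACS2 library by library against input, keeping peaks below a p-value of 0.001. Libraries were also thinned by the authors to equal read numbers for signal comparison, and whether peaks were called before or after that step is not given in the sources used here. Each deposited fold enrichment is ChIP signal over local background, a ratio. Significances were deposited as −log10 p and −log10 q. The deposited score column repeats these significances as whole numbers and was not used. The histone lists start at a −log10 q near 3, the LSD1 and Pol II lists at a −log10 p of 3.

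Each distinct TSS of a curated RefSeq transcript (GRCm38.p6) was given a 2-sided 1 kb window, and windows were overlapped with the peaks at 1 bp or more, in Python with numpy and pandas. Where several Pol II peaks entered a window, the 1 of highest −log10 p was used. For LSD1 and the histone marks it was the 1 of highest fold enrichment. Shares carry Wilson intervals, differences Newcombe intervals, and net changes a Wilson interval over the promoters that changed, all at 95%. The overlap and interval code was tested on simulated peaks. No p-values were computed, since each antibody and treatment has 1 library.

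The promoters, gene lists and motifs were chosen with earlier results of these data known. Named genes are the 15 with the highest GSK Pol II −log10 p, all members of short lists, the top 5 of longer patterns, the top 10 with GSK-only H3K4me3 or H3K27ac, examples of up to 5 with LSD1 in 1 list, the 3 weakest members and 3 promoters just outside the rule. Other GSK-only H3K4me3 members and the nearest Veh peaks were named after their values were seen. Alternatives were a stricter Pol II cutoff, another window, distance, overlap, TSS choice and equal list lengths. The 4 input samples were not used. The values of 1 named gene are not reported here.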

Additional observations from a re-analysis of the deposited data

How the results depend on the processing

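Across 8 alternatives for 6 values, 36 of 48 comparisons kept their direction and moved by less than the interval (for the count, by under 1.5 times). The net change of LSD1 was 9.14 points and stayed between 8.97 and 11.7, and that of H3K4me3 between 0.119 and 0.513. With each pair of lists cut to equal length, H3K4me2 turned from −16.7 to 4.66 and H3K27ac from −21.1 to 0.111, while H3K4me1 went from 10.3 to 4.10. Equal length removes the lowest peaks of the longer list by construction. A window of 0.5 kb gave 4.86 for H3K4me1, and 0.5 of the peak inside the window gave 6.16. A GSK Pol II −log10 p of at least 5 left 547 promoters and −26.7 for H3K27ac. With both Pol II lists at a −log10 q of at least 2, H3K4me2 was −19.7 and H3K27ac −29.6. In the stricter set, chosen after seeing the data, 445 promoters remained with −20.2 for H3K4me2 and −27.4 for H3K27ac. The cause of these shifts was not tested.

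The part of depth in the calls near the threshold of each list was not tested, and a missing peak does not show absent Pol II. No paired analysis was possible because each antibody and treatment has 1 library, and the replicate numbers of the labels belong to input samples that carried no peak list.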
